A study of Homo sapiens with 18 samples.

Results

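The genes described here are the 4 STEAP family members (STEAP1, STEAP2, STEAP3 and STEAP4) and 6 genes of cellular iron handling: TFRC, SLC11A2, FTH1, FTL, NCOA4 and SLC40A1. They were chosen by name, and all 10 were present among the 26443 genes with values. All 10 also passed the filter on low values, which left 12900 genes for testing. They were followed in the human prostate cancer line LNCaP, an established cell line, across 6 groups of 3 RNA-seq libraries. Cells were infected for 5 days with lentivirus carrying the control vector pGIPZ, an shRNA against HIF1A (shHIF1A), an shRNA against FOXA1 (shFOXA1), or both shRNAs together, here called the double knockdown. The other 2 groups were pGIPZ cells and shFOXA1 cells given KC7F2, a small-molecule inhibitor of HIF1A, at 40 µM for 24 h. Every group, control included, received 100 µM CoCl2 for 24 h, a metal salt that mimics hypoxia and stabilises HIF1A protein, so no group shows iron genes without cobalt. The genotype is one cell line throughout, the labels name no second vector for cells with 1 shRNA, and they do not say whether the 3 libraries of a group came from different dishes, so p-values cover only the spread among these libraries.

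Cells take up transferrin-bound iron through TFRC, the transferrin receptor, reduce ferric to ferrous iron in the endosome, and move it into the cytosol through SLC11A2, the divalent metal transporter DMT1. STEAP2, STEAP3 and STEAP4 are membrane reductases that pass electrons from NADPH to iron and copper, whereas STEAP1 lacks the NADPH-binding domain and is best known as a surface antigen of prostate cancer. Iron not in use is stored in shells of ferritin heavy chain (FTH1) and light chain (FTL), released again when the cargo receptor NCOA4 takes ferritin to the lysosome, and exported through SLC40A1, ferroportin. Much of this control is translational or acts on mRNA decay: iron regulatory proteins bind an iron-responsive element (IRE), a short hairpin in the untranslated region (UTR), and block translation when it lies in the 5′ UTR or protect the mRNA when it lies in the 3′ UTR. The values below are mRNA levels and carry no information on that translational step.

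The IREs are shown because they are the sequences through which iron regulatory proteins act on several of these mRNAs. A transcript form of SLC11A2 is also known to carry a 3′ IRE, which this strict search did not match. UTRs of GENCODE 29 transcripts (GRCh38) were searched on the sense strand for the loop CAGTGN, N not G, with 5 paired bases on either side, G-T pairs allowed, and a C just before the 5 on the upstream side. Such a match lay in a UTR of 130 of 19702 protein-coding genes (0.660%), among them 4 of the 10 genes here. The loop is in capitals, and each stretch is written 5′ to 3′ on the gene's strand.
FTH1 5′ UTR, chr11:61967573-61967602 (-): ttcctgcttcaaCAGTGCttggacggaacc
FTL 5′ UTR, chr19:48965335-48965364 (+): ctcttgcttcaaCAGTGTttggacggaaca
SLC40A1 5′ UTR, chr2:189580660-189580689 (-): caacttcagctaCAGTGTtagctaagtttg
TFRC 3′ UTR, chr3:196050978-196051007 (-): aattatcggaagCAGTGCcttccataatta
TFRC 3′ UTR, chr3:196050574-196050603 (-): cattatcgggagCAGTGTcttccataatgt
TFRC 3′ UTR, chr3:196050509-196050538 (-): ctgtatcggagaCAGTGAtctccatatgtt
TFRC 3′ UTR, chr3:196050462-196050491 (-): aattatcgggaaCAGTGTttcccataattt
FTH1 and FTL each held 1 match, in 7 of 8 and 1 of 1 coding transcripts, and TFRC held 4 within its 3′ UTR, in 3 of 4 coding transcripts. SLC40A1 held 1 match, in 1 of 5 coding transcripts, so its place in the mRNA depends on the transcript. A match describes letters only.

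TFRC is also a known transcriptional target of HIF1, so its promoter is shown. RefSeq promoter windows (GRCh38.p14, around the transcription start) were found for 9 of the 10 genes. FTH1 was not matched. The core hypoxia response element ACGTG, on either strand, lay in the windows of TFRC and FTL and in 21.4% of 35116 promoters. In TFRC its first base was 88 bases before the start, and it is in capitals within this stretch from base -116 to base -57 of the promoter, chr3:196082147-196082206 on the minus strand.
TFRC promoter: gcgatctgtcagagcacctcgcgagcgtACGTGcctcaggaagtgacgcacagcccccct
In FTL the reverse complement of ACGTG began 11 bases before the start. The forkhead motif TGTTTAC lay, as its reverse complement, in 1 of 2 windows of STEAP2 and in 3.42% of promoters. The androgen receptor motif AGAACA, found in 14.8% of promoters, was absent from these letters in the 9 genes. The motifs do not overlap each other in these windows, and a match or its lack says nothing of binding.

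Library depth, recovered from the spacing of low values, ran from 3.26 to 12.1 (in units of 1e6 reads), so a low gene rests on few reads: SLC40A1 on 8 to 169 and STEAP4 on 14 to 165 per library. FOXA1 stood at 34.1 ± 1.51 RPKM (SD, n = 3) in shFOXA1 against 97.5 ± 22.7 in control, and HIF1A at 3.56 ± 0.642 in shHIF1A against 23.1 ± 7.91 in control and 89.9 ± 8.998 in shFOXA1. In the double knockdown FOXA1 stood at 64.5 ± 5.77 RPKM, and HIF1A at 4.32 ± 0.245. HIF1A stood at 17.3 ± 5.18 RPKM in control + KC7F2 and 62.8 ± 10.6 in shFOXA1 + KC7F2. Its log2 changes with KC7F2, -0.38 and -0.52, were not called by limma (adjusted p = 0.559 and 0.275). The second passed without control 1 and control + KC7F2 1 and 3 (0.0414). These are mRNA values and do not show whether KC7F2 lowered HIF1A protein. Control 1 and control + KC7F2 1 and 3 carried more signal in short genes, with the shortest 25% of genes above the longest by 0.45, 0.40 and 0.31 log2 units against at most 0.08 elsewhere. FTL, with 878 exonic bases, and STEAP1, with 1625, are the shortest of the 10 genes. All 9 luminal prostate markers searched reached 1 RPKM in at least 3 libraries, with a summed level of 1655 to 2116 RPKM in control, 994 to 1183 in shHIF1A, 1385 to 1531 in shFOXA1, 820 to 921 in the double knockdown, 1437 to 1561 in control + KC7F2 and 1397 to 1516 in shFOXA1 + KC7F2. KLK3 was the largest of these 9 in every library, at 267 to 958 RPKM, so the sum does not describe the 9 markers alike. Of the leukocyte and hepatocyte lists no marker reached 1 RPKM in at least 3 libraries, and the basal keratin KRT5 was at 0 throughout. The fibroblast list summed to 5.996 to 7.33 RPKM in shHIF1A, 3.73 to 4.68 in the double knockdown and 1.75 to 2.90 in the other groups, carried by COL1A1 with COL1A2 at 0.0162 or below. The endothelial list summed to 2.11 to 2.72 in shHIF1A and 0.354 to 0.988 in the other groups, carried by VWF, and the basal list to 2.58 to 6.38 in the 3 shFOXA1 groups against 0.506 to 1.72 in the others, carried by KRT14. The red cell gene HBB stood at 0.981 to 2.08 RPKM in the double knockdown and at 0.911 or below elsewhere. The part of these markers in the results was not tested. In bulk RNA, fewer cells of a type and less RNA per cell cannot be told apart.

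Levels are RPKM, read numbers scaled by gene length and library size, which allows levels of different genes to be compared. Changes are log2 fold changes ± SE of log2(RPKM + 0.5), which understates changes of low genes, and the words rose and fell are kept for a limma adjusted p below 0.05 over all 12900 genes. The contrasts share libraries, for example the control group in the first 3, so their values are set side by side without reading agreement as support.

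FOXA1 knockdown raised 4 of the 10 genes (FTH1, SLC40A1, STEAP4 and TFRC) and lowered STEAP1, where 24.1% of all genes were called. HIF1A knockdown raised SLC40A1, STEAP3 and SLC11A2 and lowered FTH1, STEAP2, TFRC and NCOA4, 7 of 10 where 42.0% of all genes were called. In both counts the rise of SLC40A1 follows in part from the filter. It lay below 1 RPKM in control and passed through groups where it was higher. KC7F2 in control cells lowered STEAP4 and raised FTL, 2 of 10 where 2.04% of all genes were called. HIF1A knockdown added to FOXA1 knockdown changed 6 of the 10 (37.5% of all genes), raising SLC40A1 and STEAP3 and lowering STEAP4, FTH1, TFRC and STEAP2. KC7F2 added to FOXA1 knockdown changed 2 (4.08% of all genes), again STEAP4 downward and FTL upward. In HIF1A-depleted cells FOXA1 knockdown changed 4 genes (14.5% of all genes), raising FTH1 and SLC40A1 and lowering STEAP4 and SLC11A2. Under KC7F2 it changed 6 (32.9% of all genes), raising STEAP4, FTH1 and TFRC and lowering STEAP3, STEAP1 and FTL. The interaction of FOXA1 and HIF1A knockdown, which asks whether the FOXA1 effect differs with HIF1A depleted, was called for STEAP4 alone of the 10 (7.61% of all genes). The interaction of FOXA1 knockdown and KC7F2 was called by limma for 0 of the 10 (0.0775% of all genes), with 2, STEAP3 and STEAP4, at an unadjusted p below 0.05. The median change over the 10 genes was -0.08 for FOXA1 knockdown, -0.07 for HIF1A knockdown and 0.03 for KC7F2, against -0.09, 0.07 and 0.07 over all genes.

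**Figure D1:**
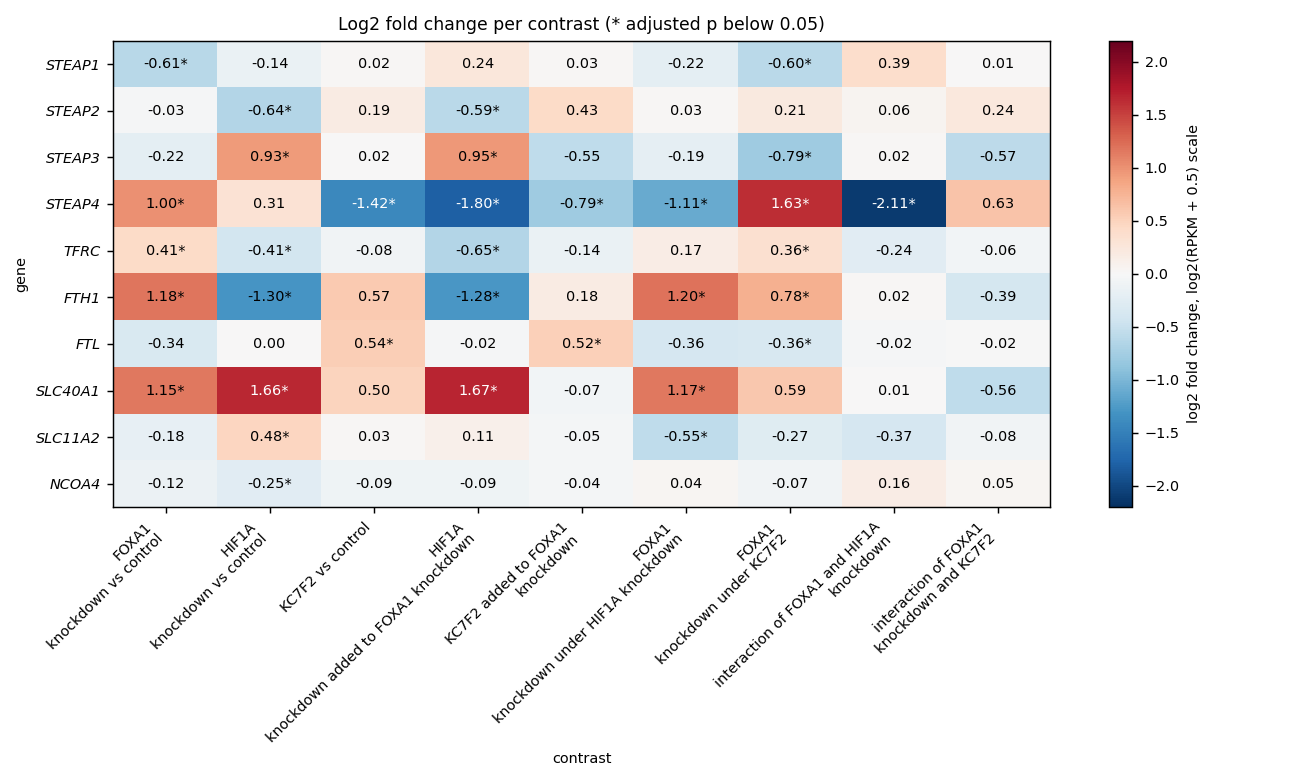
Log2 fold change (log2(RPKM + 0.5) scale, colour and number) of each gene (rows) in the 9 contrasts (columns), with an asterisk at an adjusted p below 0.05. STEAP4 holds the lowest value shown, -2.11 in the interaction of FOXA1 and HIF1A knockdown, which is a difference between effects. It also holds -1.80 for HIF1A knockdown added to FOXA1 knockdown and a rise of 1.63 in FOXA1 knockdown under KC7F2.

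Among the reductases, STEAP1 and STEAP2 were abundant and STEAP3 and STEAP4 scarce. STEAP1 (chromosome 7, 90154375 to 90164829, GRCh38) and STEAP2 (chromosome 7, 90167590 to 90238137) are neighbours on the same strand and stood at 144 ± 21.3 and 109 ± 18.1 RPKM in control. STEAP3 (chromosome 2, 119223831 to 119265652) stood at 3.79 ± 0.838 RPKM, and STEAP4 (chromosome 7, 88270892 to 88306891) at 2.05 ± 0.215. Despite their shared locus, STEAP1 and STEAP2 moved in different contrasts. The antisense gene STEAP2-AS1 overlaps both and reached at most 2.37 RPKM, and STEAP3-AS1 lies within STEAP3 and reached at most 0.169. The near copy STEAP1B reached at most 0.140 RPKM. Whether counting used strand is not stated, so reads of antisense partners cannot be told apart.

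STEAP4, a reductase described as androgen-induced in prostate cells, was called in 7 of the 9 contrasts. Its control libraries held 2.00, 1.87 and 2.29 RPKM, shHIF1A 2.32, 2.74 and 2.95, and shFOXA1 4.69, 4.33 and 4.78. With KC7F2 it fell to 0.471, 0.433 and 0.451 RPKM in control cells, and it stood at 2.35, 2.71 and 2.30 in shFOXA1 cells. The double knockdown held 0.940, 0.743 and 1.25 RPKM, resting on 14, 22 and 48 reads. Every shFOXA1 library was above every other library, and every control + KC7F2 library was below every other. The next 2 groups up from control, shFOXA1 + KC7F2 and shHIF1A, overlapped each other.

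FOXA1 knockdown raised STEAP4 by 1.00 ± 0.14 (adjusted p = 5.07e-05) and, under KC7F2, by 1.63 ± 0.14 (adjusted p = 2.62e-07). With HIF1A depleted the same knockdown had the opposite sign: STEAP4 fell by 1.11 ± 0.14 (adjusted p = 4.26e-05). That difference between backgrounds was itself called, at -2.11 ± 0.20 (adjusted p = 4.53e-06). HIF1A knockdown gave 0.31 ± 0.14 in control cells (adjusted p = 0.0828), passing only with the length and GC trend removed (adjusted p = 0.0456), but STEAP4 fell by 1.80 ± 0.14 when it was added to FOXA1 knockdown (adjusted p = 6.03e-08). KC7F2 lowered STEAP4 by 1.42 ± 0.14 in control (adjusted p = 2.48e-05) and by 0.79 ± 0.14 in shFOXA1 cells (adjusted p = 0.00280). The interaction with KC7F2 was 0.63 ± 0.20 and was not called (adjusted p = 0.360). The HIF1A shRNA and KC7F2 thus gave values of 0.31 and -1.42 in control cells, against the same 3 control libraries, and their difference was not tested. At a minimum of 5 RPKM the gene is not tested. In the double knockdown, FOXA1 mRNA was also less reduced than in shFOXA1, at 64.5 against 34.1 RPKM, and the part of that difference in the STEAP4 values was not tested.

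STEAP3, the endosomal ferrireductase of the transferrin cycle, was high where HIF1A was depleted by shRNA. Control libraries held 2.83, 4.40 and 4.12 RPKM, shHIF1A 7.42, 7.82 and 7.44, and the double knockdown 6.14, 7.27 and 6.30. It stood at 3.19, 2.82 and 3.42 RPKM in shFOXA1, at 3.69, 4.73 and 3.06 in control + KC7F2 and at 1.60, 2.64 and 1.81 in shFOXA1 + KC7F2. The 6 libraries with the HIF1A shRNA were above all 12 others. STEAP3 rose by 0.93 ± 0.17 on HIF1A knockdown (adjusted p = 0.000408) and by 0.95 ± 0.17 when it was added to FOXA1 knockdown (adjusted p = 0.000393), the 2 effects lying close together (interaction within the small values given at the end). KC7F2 did not give that rise: in shFOXA1 cells its value was -0.55 ± 0.17 (adjusted p = 0.0932), which passed without shFOXA1 + KC7F2 2 (-0.72, adjusted p = 0.0376) or with the 3 libraries of more short-gene signal left out (adjusted p = 0.0358). STEAP3 fell by 0.79 ± 0.17 on FOXA1 knockdown under KC7F2 (adjusted p = 0.00257), and the interaction with KC7F2 was -0.57 ± 0.24 (adjusted p = 0.676).

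STEAP2, an abundant prostate reductase, fell with the HIF1A shRNA. It stood at 93.4, 106 and 129 RPKM in control, 61.8, 69.1 and 77.6 in shHIF1A, and 72.1, 70.0 and 69.1 in the double knockdown. The values were 110, 97.5 and 111 RPKM in shFOXA1, 116, 137 and 119 in control + KC7F2, and 146, 150 and 133 in shFOXA1 + KC7F2. All 6 libraries with the HIF1A shRNA lay below the other 12, while the 2 groups of lowest mean overlapped each other and the control overlapped both shFOXA1 and control + KC7F2. STEAP2 fell by 0.64 ± 0.12 on HIF1A knockdown (adjusted p = 0.000375) and by 0.59 ± 0.12 on top of FOXA1 knockdown (adjusted p = 0.000963). KC7F2 added to FOXA1 knockdown gave 0.43 ± 0.12, short of the threshold (adjusted p = 0.0546). That value passed with the length and GC trend removed (adjusted p = 0.00845), with the 3 libraries left out (0.0294) or with only the groups compared (0.0438).

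STEAP1, the abundant prostate cancer antigen, was low in FOXA1-depleted cells. Its levels were 168, 127 and 137 RPKM in control, 122, 138 and 129 in shHIF1A, and 160, 131 and 146 in control + KC7F2. They were 91.6, 94.7 and 94.97 RPKM in shFOXA1, 103, 91.9 and 92.6 in shFOXA1 + KC7F2, and 134, 94.8 and 107 in the double knockdown. The shFOXA1 and shFOXA1 + KC7F2 libraries lay below all 9 libraries without the FOXA1 shRNA, and the double knockdown overlapped both sides. STEAP1 fell by 0.61 ± 0.13 on FOXA1 knockdown (adjusted p = 0.00230) and by 0.60 ± 0.13 under KC7F2 (adjusted p = 0.00204), the latter lost with quantile normalisation (-0.23, adjusted p = 0.129) or without the 3 libraries (-0.45, adjusted p = 0.0745). The interaction with HIF1A knockdown was 0.39 ± 0.18 (adjusted p = 0.234). The ratio of STEAP1 to STEAP2, taken within each library, was 1.06 to 1.80 in control, 1.66 to 2.00 in shHIF1A, 0.834 to 0.971 in shFOXA1, 1.35 to 1.87 in the double knockdown, 0.952 to 1.39 in control + KC7F2 and 0.613 to 0.705 in shFOXA1 + KC7F2. STEAP1 thus exceeded STEAP2 in every library without the FOXA1 shRNA except control + KC7F2 2 and in the double knockdown, and fell short of it in the 6 libraries with shFOXA1 and no HIF1A shRNA.

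**Figure D2:**
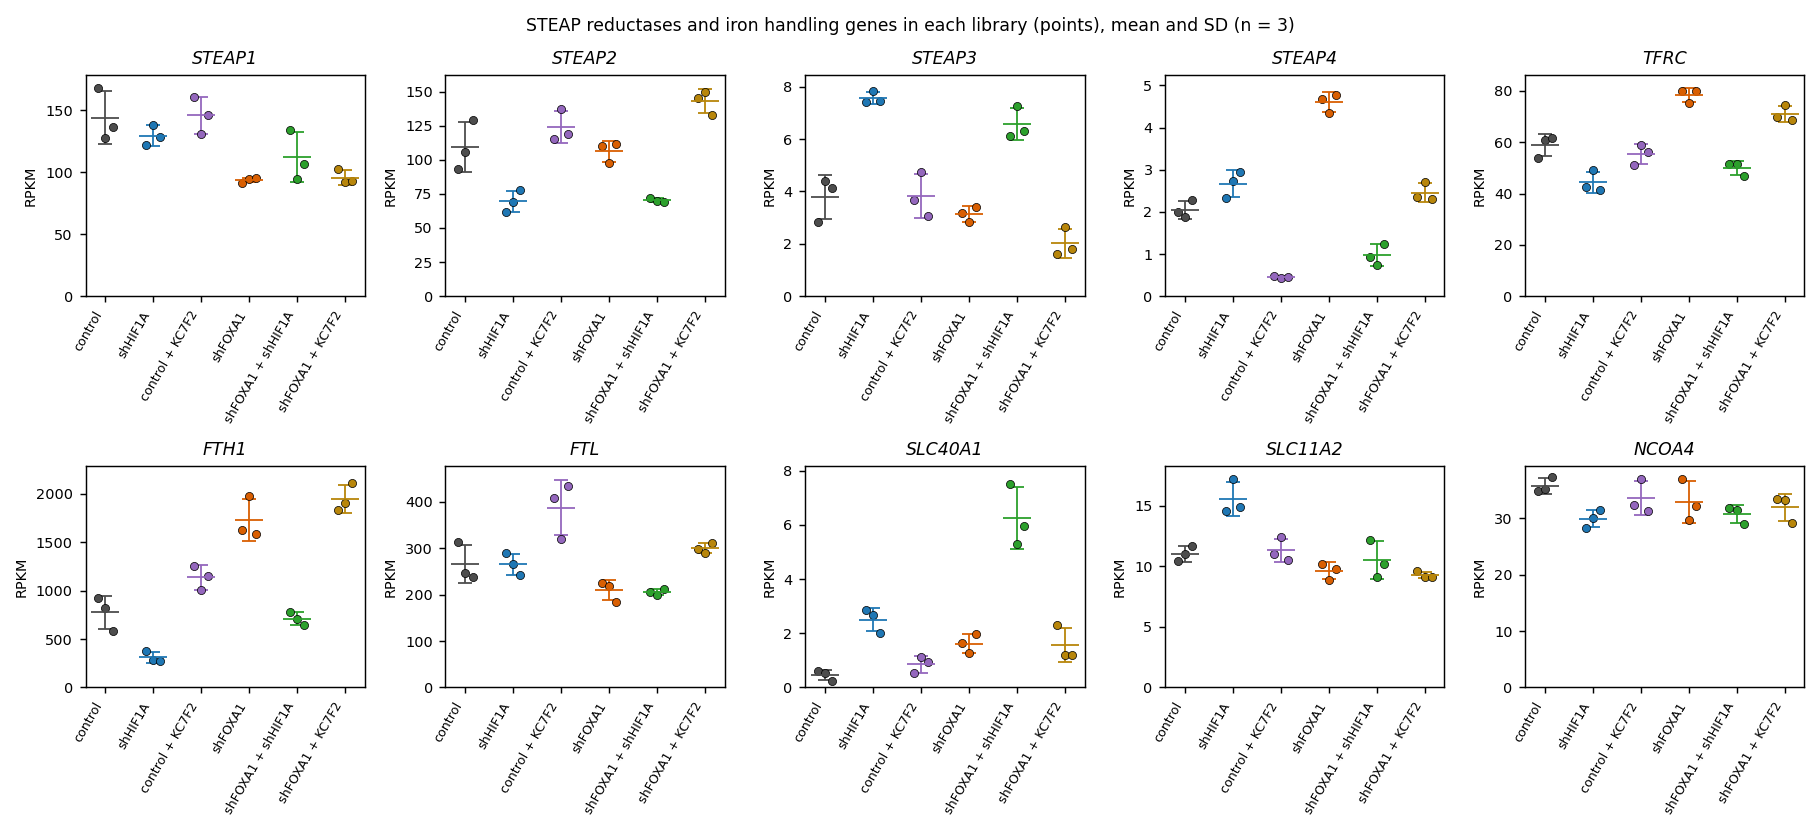
RPKM of each of the 10 genes in every library (points), with mean and SD of the 3 libraries of a group (bars), on linear axes that start at 0. Control + KC7F2 holds the lowest STEAP4 values (0.433 to 0.471 RPKM) and the double knockdown the highest SLC40A1 values (5.29 to 7.50 RPKM).

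On the uptake side, TFRC (chromosome 3, 196027183 to 196082189), whose promoter stretch and 4 IRE letters are printed above, had its 6 group means in the same order as those of HIF1A mRNA. Its levels were 54.0, 60.7 and 61.7 RPKM in control, 42.5, 49.0 and 41.4 in shHIF1A, and 79.8, 75.4 and 80.0 in shFOXA1. They were 51.5, 51.4 and 46.8 RPKM in the double knockdown, 51.2, 58.7 and 56.3 in control + KC7F2, and 69.7, 74.7 and 68.6 in shFOXA1 + KC7F2. The 3 shFOXA1 libraries were the highest of all 18, the shFOXA1 + KC7F2 libraries came next without overlap, and the 4 other groups each overlapped their neighbour in the order shHIF1A, double knockdown, control + KC7F2, control. TFRC rose by 0.41 ± 0.09 on FOXA1 knockdown (adjusted p = 0.00278), fell by 0.41 ± 0.09 on HIF1A knockdown (adjusted p = 0.00170) and fell by 0.65 ± 0.09 when HIF1A knockdown was added to FOXA1 knockdown (adjusted p = 3.10e-05). Under KC7F2, FOXA1 knockdown raised it by 0.36 ± 0.09 (adjusted p = 0.00650), a call lost without the 3 libraries (0.27, adjusted p = 0.139). HIF1A was the second most similar gene to TFRC over the 18 libraries, at r = 0.964 on the log2 scale, a description of libraries that share groups.

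SLC11A2 (chromosome 12, 50979401 to 51028566), which carries ferrous iron across the endosomal membrane, was highest in shHIF1A. There it held 14.6, 17.2 and 14.9 RPKM, above all 15 other libraries, which ran from 8.88 to 12.4. The other groups had means of 11.0 ± 0.635 in control, 11.3 ± 0.966 in control + KC7F2, 10.5 ± 1.56 in the double knockdown, 9.64 ± 0.689 in shFOXA1 and 9.29 ± 0.260 in shFOXA1 + KC7F2, each overlapping its neighbour in that order. SLC11A2 rose by 0.48 ± 0.11 on HIF1A knockdown (adjusted p = 0.00190) and fell by 0.55 ± 0.11 when FOXA1 was depleted in the HIF1A-depleted background (adjusted p = 0.00214). The interaction that compares the FOXA1 effect between those backgrounds was -0.37 ± 0.15 and was not called (adjusted p = 0.168). TFRC fell and SLC11A2 and STEAP3 rose on HIF1A knockdown, so the 3 genes of the endosomal route did not move together.

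Of the storage genes, FTH1 was called in 5 contrasts, each of them of an shRNA, and FTL in 3, each of them with KC7F2 in 1 or both groups. FTH1 (chromosome 11, 61959718 to 61967660) was the most abundant of the 10 genes in every group. Control libraries held 919, 819 and 588 RPKM, shHIF1A 377, 288 and 271, and the double knockdown 781, 704 and 647. They reached 1629, 1975 and 1585 RPKM in shFOXA1, 1253, 1002 and 1151 in control + KC7F2, and 1833, 1903 and 2107 in shFOXA1 + KC7F2. The 3 shHIF1A libraries were the lowest of the 18 and the 6 libraries with the FOXA1 shRNA and no HIF1A shRNA the highest, while control and double knockdown overlapped. Reads of FTH1 can be shared with its processed copies, of which GENCODE 29 lists 25 and the deposited values include 2, summing to at most 1.55 RPKM in a library, and BEST1 overlaps its locus.

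FTH1 rose by 1.18 ± 0.17 on FOXA1 knockdown (adjusted p = 7.12e-05), by 1.20 ± 0.17 with HIF1A depleted (adjusted p = 0.000139) and by 0.78 ± 0.17 under KC7F2 (adjusted p = 0.00222), the last lost with no filter on low values (adjusted p = 0.0549). It fell by 1.30 ± 0.17 on HIF1A knockdown (adjusted p = 1.43e-05) and by 1.28 ± 0.17 when that was added to FOXA1 knockdown (adjusted p = 1.92e-05). Each shRNA thus gave nearly the same change in FTH1 with and without the other, although the knockdowns were not equally deep. FOXA1 mRNA was left at 36.0% without and 53.8% with the HIF1A shRNA. HIF1A mRNA was left at 17.9% without and 5.35% with the FOXA1 shRNA. The part of these differences in the FTH1 values was not tested. KC7F2 gave 0.57 ± 0.17 in control cells, of opposite sign to the HIF1A shRNA, and was not called (adjusted p = 0.116). It passed without control 1 (0.70, adjusted p = 0.0323), with quantile normalisation (0.48, adjusted p = 0.0146) and with the length and GC trend removed (0.54, adjusted p = 0.0310). The interaction with KC7F2 was -0.39 ± 0.24 (adjusted p = 0.833).

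FTL (chromosome 19, 48965301 to 48966878) stayed between 184 and 433 RPKM over the 18 libraries. Its group means were 266 ± 40.7 in control, 209 ± 21.8 in shFOXA1, 265 ± 23.3 in shHIF1A, 206 ± 6.03 in the double knockdown, 387 ± 58.9 in control + KC7F2 and 299 ± 10.6 in shFOXA1 + KC7F2. The 3 control + KC7F2 libraries, at 407, 320 and 433 RPKM, were the highest, and the shFOXA1 and double knockdown libraries the lowest. FTL rose by 0.54 ± 0.13 with KC7F2 (adjusted p = 0.0399) and by 0.52 ± 0.13 in shFOXA1 cells (adjusted p = 0.0313). The first call was lost without control 2 (0.151), control 3 (0.167), control + KC7F2 1 (0.185) or 3 (0.197), with no filter on low values (0.0957), with median-ratio scaling (0.0543), without the 3 libraries (0.40, adjusted p = 0.491) and with only the groups compared (adjusted p = 0.507). The second was lost without any 1 of its 6 libraries (adjusted p 0.0561 to 0.150). FTL also fell by 0.36 ± 0.13 on FOXA1 knockdown under KC7F2 (adjusted p = 0.0436), a call lost without any 1 of 5 libraries (adjusted p 0.0655 to 0.177, all but control + KC7F2 2), without the 3 libraries (-0.10, adjusted p = 0.688) and turned to about 0 by quantile normalisation. The FOXA1 effect was -0.34 ± 0.13 in control cells (adjusted p = 0.0659), passing without control 3 (adjusted p = 0.0324), with the length and GC trend removed (0.0130) or with the replicate number as a block (0.0480). It was -0.36 ± 0.13 with HIF1A depleted (adjusted p = 0.0736), passing without the 3 libraries (adjusted p = 0.0165), with quantile normalisation (0.00417) or with the trend removed (0.00492).

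The ratio of FTH1 to FTL within a library, which does not depend on library scaling, separated the groups. It was 2.94, 3.31 and 2.47 in control, 1.31, 1.09 and 1.12 in shHIF1A, and 7.28, 9.01 and 8.61 in shFOXA1. It was 3.80, 3.53 and 3.06 in the double knockdown, 3.08, 3.13 and 2.66 in control + KC7F2, and 6.17, 6.56 and 6.77 in shFOXA1 + KC7F2. The 3 libraries of shHIF1A stood below all others and the 6 with shFOXA1 and no HIF1A shRNA above all others, and the remaining 9 overlapped. Summed ferritin mRNA, FTH1 plus FTL, was 1041 ± 204 RPKM in control, 1939 ± 225 in shFOXA1, 577 ± 78.8 in shHIF1A, 916 ± 65.2 in the double knockdown, 1522 ± 177 in control + KC7F2 and 2247 ± 151 in shFOXA1 + KC7F2.

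NCOA4 (chromosome 10, 46005088 to 46030714), which delivers ferritin for breakdown, varied least, from 28.3 to 37.3 RPKM over the 18 libraries. Group means ran from 29.9 ± 1.55 RPKM in shHIF1A to 35.7 ± 1.39 in control, and in the order shHIF1A, double knockdown, shFOXA1 + KC7F2, shFOXA1, control + KC7F2, control each group overlapped the next. NCOA4 fell by 0.25 ± 0.10 on HIF1A knockdown (adjusted p = 0.0453), and the 3 shHIF1A libraries were all below the 3 of control. The call was lost without any 1 of those 6 libraries (adjusted p 0.0506 to 0.144), without the 3 libraries (0.0536), with no filter on low values (0.0531), with only the groups compared (0.0936), with the length and GC trend removed (-0.11, adjusted p = 0.393) and with the replicate number as a block (0.0512).

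SLC40A1 (chromosome 2, 189560579 to 189583758), the iron exporter, was the scarcest of the 10 genes in control and rose with either shRNA. Every control library lay below 1 RPKM, and the gene passed the filter through groups where it was higher. Its rises against control therefore follow in part from the filter. Control libraries held 0.603, 0.540 and 0.231 RPKM (23, 21 and 8 reads), shHIF1A 2.85, 2.66 and 2.01 (115, 102 and 60 reads), and shFOXA1 1.63, 1.27 and 1.96 (42, 26 and 34 reads). The double knockdown held 7.50, 5.29 and 5.98 RPKM, on 82, 115 and 169 reads. With KC7F2 the levels were 0.518, 1.13 and 0.922 RPKM in control cells and 2.30, 1.20 and 1.19 in shFOXA1 cells. The double knockdown was above all other libraries, shHIF1A was above the remaining ones except shFOXA1 + KC7F2 1, and control overlapped control + KC7F2. The 95% Poisson interval of the control library with 8 reads is 3.45 to 15.8 reads and covers counting error only.

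SLC40A1 rose by 1.66 ± 0.24 on HIF1A knockdown (adjusted p = 4.02e-05) and by 1.67 ± 0.24 on top of FOXA1 knockdown (adjusted p = 4.34e-05). It rose by 1.15 ± 0.24 on FOXA1 knockdown (adjusted p = 0.00198) and by 1.17 ± 0.24 with HIF1A depleted (adjusted p = 0.00323). How these effects compare between backgrounds depends on the pseudocount. With 0.1 in place of 0.5 the HIF1A effect was 2.28 in control and 1.89 in shFOXA1 cells, and with 1 it was 1.27 and 1.47. The FOXA1 effect was 1.68 in control and 1.29 in shHIF1A cells with 0.1, and 0.85 and 1.05 with 1. KC7F2 gave 0.50 ± 0.24 (adjusted p = 0.432). Under KC7F2 the FOXA1 effect was 0.59 ± 0.24 (adjusted p = 0.0673), passing without control + KC7F2 2 (0.74, adjusted p = 0.0416), with median-ratio scaling (0.0346) or with the trend removed (0.0439). The interaction with KC7F2 was -0.56 ± 0.34 (adjusted p = 0.831). The within-library ratio of SLC40A1 to TFRC, export over uptake mRNA, was 0.00375 to 0.0112 in control, 0.0486 to 0.0669 in shHIF1A, 0.0168 to 0.0245 in shFOXA1, 0.103 to 0.146 in the double knockdown, 0.0101 to 0.0192 in control + KC7F2 and 0.0161 to 0.0330 in shFOXA1 + KC7F2. Both KC7F2 groups overlapped shFOXA1 and each other, and control + KC7F2 also overlapped control.

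**Figure D3:**
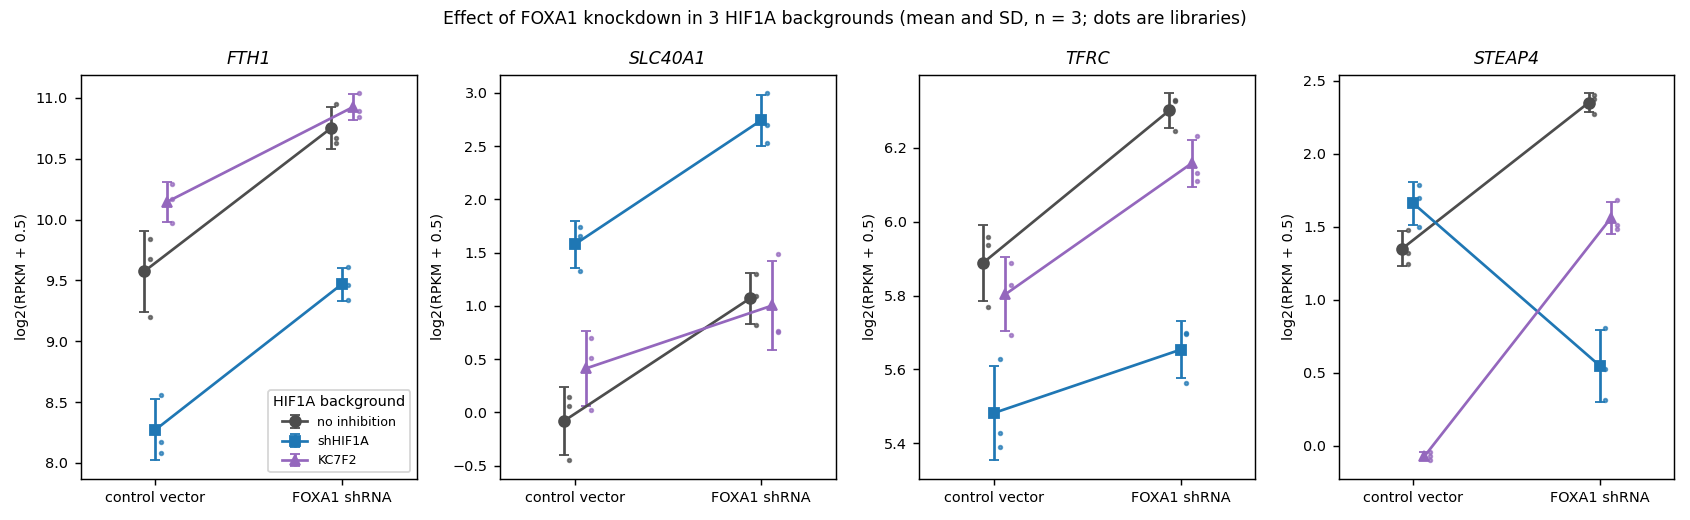
log2(RPKM + 0.5) of 4 genes without and with the FOXA1 shRNA, in cells with the HIF1A shRNA, with KC7F2 or with neither (labelled no inhibition). Lines join means, bars are SD over 3 libraries, dots are libraries, and the y axes do not start at 0. With neither and with the HIF1A shRNA the lines of FTH1 run parallel, with changes of 1.18 and 1.20, and those of STEAP4 cross, with changes of 1.00 and -1.11. The changes of SLC40A1, 1.15 and 1.17, are close at a pseudocount of 0.5 but less so at 0.1 or 1. FOXA1 mRNA was less reduced with the HIF1A shRNA than without it.

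Of the 3 genes with a 5′ IRE match, on HIF1A knockdown FTH1 fell, SLC40A1 rose and FTL was not called. TFRC, the 1 gene with 3′ matches, fell. The remaining values were small: 43 of the 90 gene-by-contrast values were uncalled and under 0.3 in size. These ran from -0.22 to -0.03 on FOXA1 knockdown (STEAP2, STEAP3, SLC11A2 and NCOA4), from -0.14 to 0.00 on HIF1A knockdown (STEAP1 and FTL) and from -0.09 to 0.19 with KC7F2 (STEAP1, STEAP2, STEAP3, TFRC, SLC11A2 and NCOA4). They ran from -0.09 to 0.24 for HIF1A knockdown on top of FOXA1 knockdown (STEAP1, FTL, SLC11A2 and NCOA4) and from -0.14 to 0.18 for KC7F2 on top of it (STEAP1, TFRC, FTH1, SLC40A1, SLC11A2 and NCOA4). For FOXA1 knockdown they ran from -0.22 to 0.17 with HIF1A depleted (STEAP1, STEAP2, STEAP3, TFRC and NCOA4) and from -0.27 to 0.21 under KC7F2 (STEAP2, SLC11A2 and NCOA4). The interaction values ran from -0.24 to 0.16 with HIF1A knockdown (STEAP2, STEAP3, TFRC, FTH1, FTL, SLC40A1 and NCOA4) and from -0.08 to 0.24 with KC7F2 (STEAP1, STEAP2, TFRC, FTL, SLC11A2 and NCOA4). A value that misses the threshold does not show that a gene did not change.

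Other iron genes were taken from 6 lists that leave out the 10 genes. Their counts stand against 24.1% of all genes called on FOXA1 knockdown, 42.0% on HIF1A knockdown and 2.04% with KC7F2, and their medians against -0.09, 0.07 and 0.07 over all genes. Of 16 other genes of iron uptake and reduction, 9 were tested. On FOXA1 knockdown 1 rose and 3 fell (median -0.22), and on HIF1A knockdown 5 rose and 1 fell (median 0.57). LCN2, lipocalin 2, which binds iron-carrying siderophores, rose by 2.36 ± 0.19 on FOXA1 knockdown (adjusted p = 8.90e-08) and by 2.04 ± 0.19 on HIF1A knockdown (adjusted p = 3.55e-07), from 4.65 ± 0.315 RPKM in control to 26.3 ± 5.58 and 20.8 ± 2.81. The metal transporters SLC39A8 and SLC39A14 fell by 0.93 ± 0.10 and 0.48 ± 0.11 on FOXA1 knockdown and rose by 0.57 ± 0.10 and 0.72 ± 0.11 on HIF1A knockdown (adjusted p at most 0.00445). The cytoskeletal gene DMTN rose by 1.01 ± 0.14 on HIF1A knockdown (adjusted p = 2.36e-05). DMTN was counted with this list, so it is 1 of the 5 that rose and enters the median of 0.57. VPS35, which sorts endosomal cargo, fell by 0.28 ± 0.10 on FOXA1 knockdown (adjusted p = 0.0474), a call lost without any 1 of the 6 libraries (adjusted p 0.0512 to 0.139), without the 3 libraries of more short-gene signal (0.154), with only the groups compared (0.107), with no filter (0.0583) and under either other scaling (0.125 and 0.313). With KC7F2 the 9 genes were not called, and LCN2 fell by 1.18 ± 0.19 when it was given to shFOXA1 cells (adjusted p = 0.00114).

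Of 9 genes of storage, export and systemic control, 4 were tested, of which 1 rose on FOXA1 knockdown (median -0.18) and 2 on HIF1A knockdown (median 0.65). The genes that rose, HEPH and BMP6, averaged below 1 RPKM in control and passed the filter through groups where they were higher. The counts and medians of these 4 genes therefore follow in part from the filter. HEPH, hephaestin, the ferroxidase that works beside ferroportin, rose by 0.89 ± 0.20 on FOXA1 knockdown (adjusted p = 0.00425) and by 1.23 ± 0.20 on HIF1A knockdown (adjusted p = 0.000155), from 0.386 ± 0.108 RPKM in control to 1.14 ± 0.0567 and 1.59 ± 0.308. BMP6, a ligand that drives hepcidin in the liver, rose by 1.64 ± 0.24 on HIF1A knockdown (adjusted p = 4.03e-05), from 0.628 ± 0.261 to 2.97 ± 0.550 RPKM. Among 8 genes listed as iron regulatory proteins and their control, 1 fell on FOXA1 knockdown, and 1 rose and 3 fell on HIF1A knockdown (medians 0.02 and -0.07, 24.1% and 42.0% of all genes called). All that fell were iron-sulfur genes of the CISD family, which were counted with this list. ACO1 and IREB2, the 2 proteins that bind IREs, were not called in those contrasts. The mitochondrial iron-sulfur protein CISD1 fell by 0.80 ± 0.25 on FOXA1 knockdown (adjusted p = 0.0309), lost without control 1 (0.136) or shFOXA1 1 (0.0562) or 3 (0.154), without the 3 libraries (-0.62, adjusted p = 0.128), with no filter (0.0935) and with only the groups compared (0.0851). It fell by 1.03 ± 0.25 on HIF1A knockdown (adjusted p = 0.00367).

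Of 24 haem genes, 2 rose and 7 fell on FOXA1 knockdown (median -0.28, 24.1% of all genes called) and 6 rose and 6 fell on HIF1A knockdown (median -0.05, 42.0% of all genes), while KC7F2 raised 2 (median 0.17, 2.04% of all genes). HMOX1, haem oxygenase, which frees iron from haem, rose by 2.23 ± 0.15 on FOXA1 knockdown, from 18.6 ± 1.11 to 89.5 ± 9.51 RPKM (adjusted p = 1.21e-08), and FECH, ferrochelatase, which inserts iron into haem, fell by 0.43 ± 0.08 (adjusted p = 0.000526). HMOX1 then fell by 1.80 ± 0.15 when HIF1A knockdown was added (adjusted p = 1.09e-07). On HIF1A knockdown FECH fell by 1.00 ± 0.08 (adjusted p = 5.41e-08) and the mitochondrial porphyrin transporter ABCB6 fell by 0.99 ± 0.11 (adjusted p = 3.48e-06), whereas the haem transporter SLC48A1 rose by 0.87 ± 0.13 (adjusted p = 6.31e-05). ABCB6 rose by 0.54 ± 0.11 with KC7F2 (adjusted p = 0.0146), a call lost without control 3 (0.0693) or control + KC7F2 1 (0.0563) or 2 (0.0604), without the 3 libraries (0.68, adjusted p = 0.132) and with only the groups compared (0.295).

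Of 29 tested genes of iron-sulfur cluster assembly, 10 fell on FOXA1 knockdown (median -0.32), and 5 rose and 4 fell on HIF1A knockdown (median 0.02). The FOXA1 pattern was not seen in HIF1A-depleted cells, where 1 rose and 1 fell (median -0.06, as over all genes, 14.5% called). Under KC7F2, 9 fell (median -0.42 against -0.15 over all genes, 32.9% called). These list counts were not repeated without the 3 libraries of more short-gene signal. NFU1, a cluster carrier, fell by 0.71 ± 0.15 and the mitochondrial iron importer SLC25A37 fell by 0.41 ± 0.09 on FOXA1 knockdown (adjusted p at most 0.00288), SLC25A37 short of the threshold with only the groups compared (0.0579). On HIF1A knockdown the scaffold gene ISCU rose by 0.61 ± 0.15 and the reductase gene FDXR rose by 1.05 ± 0.24, whereas SLC25A37 fell by 0.43 ± 0.09 (adjusted p at most 0.00413). Of 17 tested genes of ferroptosis defence and lipid peroxidation, 3 rose and 4 fell on FOXA1 knockdown, 1 rose and 5 fell on HIF1A knockdown, and 4 rose with KC7F2 (medians -0.30, -0.17 and 0.27 against -0.09, 0.07 and 0.07 over all genes). The cystine transporter subunits SLC7A11 and SLC3A2 rose by 0.82 ± 0.11 and 0.93 ± 0.12 with KC7F2, thioredoxin reductase TXNRD1 rose by 0.61 ± 0.09 and the glutathione gene GCLM rose by 0.66 ± 0.10 (adjusted p at most 0.00162). In a fit of the 2 groups alone these 4 calls were lost (adjusted p 0.118 to 0.179), TXNRD1 also with quantile normalisation (0.0680) and GCLM without the 3 libraries (0.191). On HIF1A knockdown TXNRD1 fell by 1.34 ± 0.09 (adjusted p = 1.10e-08), so the shRNA and the inhibitor gave opposite signs for it, each against the same control libraries.

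**Figure D4:**
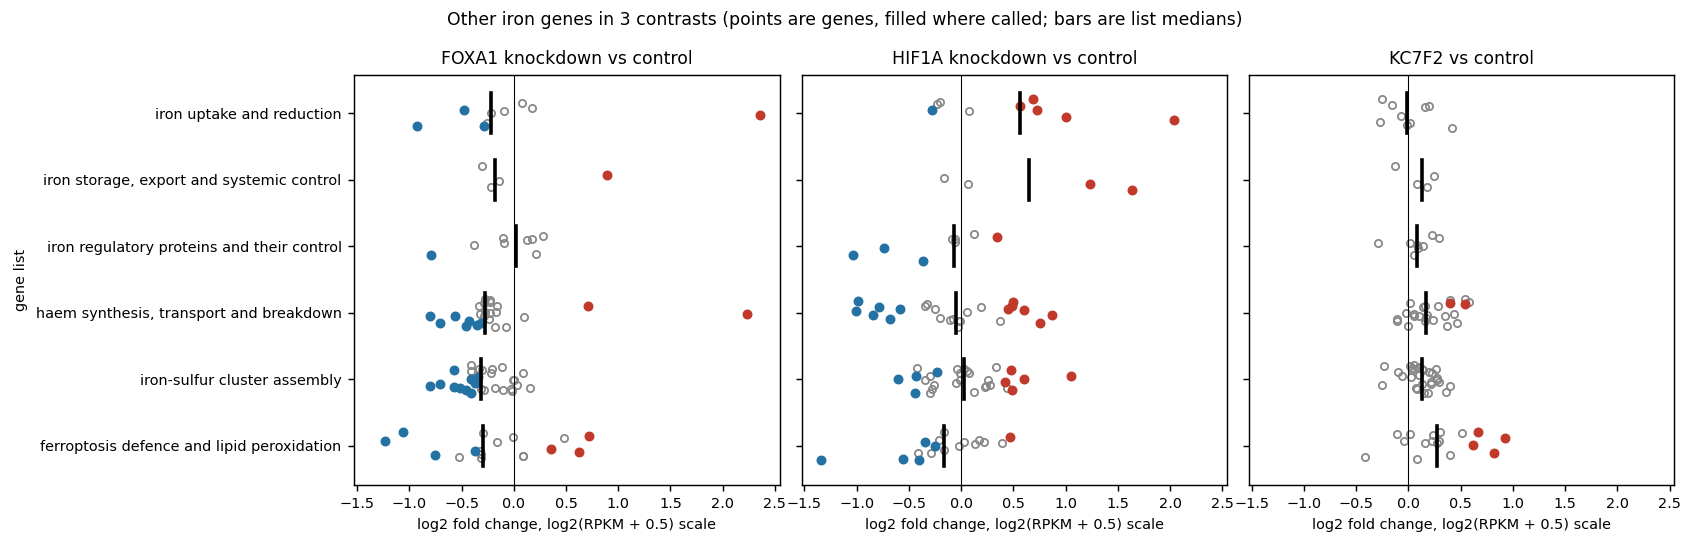
Log2 fold change (x axis, log2(RPKM + 0.5) scale) of each tested gene of the 6 other iron lists (rows) in 3 contrasts (panels), filled red where called higher, filled blue where called lower and open where not called, with the list median as a black bar. HMOX1 at 2.23 and LCN2 at 2.36 stand far to the right on FOXA1 knockdown, and the iron-sulfur list has its 10 called genes on the left.

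The genes whose log2 levels followed each of the 10 most closely over the 18 libraries are given as Pearson r, a description of libraries that share 6 groups. For the reductases they were PLGRKT (0.954), IAH1 (0.945) and ATP6V1D (0.938) for STEAP1, and DIEXF (0.950), TXNRD1 (0.947) and USP40 (0.937) for STEAP2. They were CARM1 (0.952), FAM212B (0.951) and SEPT9 (0.945) for STEAP3, and SOCS2 (0.914), SPOCK1 (0.877) and VLDLR (0.863) for STEAP4. RBM47 (0.967), HIF1A (0.964) and EHF (0.963) were nearest to TFRC, and GNB1 (0.943), ABAT (0.940) and UBFD1 (0.933) to SLC11A2. IL6R (0.961), NXPE3 (0.959) and MIRLET7BHG (0.953) were nearest to FTH1, and WDR45 (0.930), SYNE4 (0.905) and BOD1 (0.892) to FTL. DENND1B (0.956), CTSB (0.953) and MKRN9P (0.949) were nearest to SLC40A1, and NCOA4 had no gene above 0.828 (MTRR). Among the 10 genes themselves, the highest r was 0.846, between TFRC and FTH1, and the lowest was -0.872, between STEAP3 and FTH1.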

How the data were processed

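The authors deposited RPKM values per gene and library, and the submitters' processing notes name STAR and hg38. The counter, annotation and strand setting are not stated in those sources. Of 26475 lines, 32 held no value. Positions come from GENCODE 29, which matched 23884 symbols. Depth, and whole reads within 0.05, came from the spacing of low values in 2348 genes of up to 200 nt. log2(RPKM + 0.5) of genes reaching 1 RPKM in 3 or more of 18 libraries was fitted with limma 3.58.1 in R 4.3.3 (1 model of 6 groups, eBayes with trend, two-sided, Benjamini-Hochberg within a contrast, no further scaling). The fit was also run on simulated data, for FOXA1 knockdown against control only. All 10 genes are named in every contrast, up to 4 genes per list by smallest adjusted p in the first 3 contrasts and up to 2 in the other 6, of which the text prints some, and the 3 most similar genes by r. The genes and lists were chosen with earlier results of these data known. Other settings were pseudocounts, filters, scalings, a length and GC trend, a replicate block and each library left out. Python 3.11.15 drew the figures.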

Additional observations from a re-analysis of the deposited data

Results flagged for a closer look

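For 9 genes the effect of FOXA1 knockdown differed between cells with and without HIF1A knockdown by the interaction term of the limma model (difference of the 2 effects, log2 scale, adjusted p below 0.05 over 12900 genes, where 7.61% of all genes were called). STEAP4 was the 1 of the 10 genes described: its FOXA1 effect was 1.00 without and -1.11 with HIF1A knockdown, a difference of -2.11 ± 0.20 (adjusted p = 4.53e-06). The other iron lists held 9 tested genes of uptake and reduction, 4 of storage, export and systemic control, and 8 of iron regulatory proteins. They also held 24 tested genes of haem, 29 of iron-sulfur cluster assembly and 17 of ferroptosis defence. The 9 genes were those called among the 10 and these lists. Whether their share exceeds the 7.61% of all genes was not tested. From the other iron lists, LCN2 differed by -2.65 ± 0.26, HMOX1 by -1.45 ± 0.21 and HEPH by -1.23 ± 0.29. SLC7A11 differed by 1.79 ± 0.15, FDX1 by 1.23 ± 0.34, SLC39A8 by 0.91 ± 0.15, BLVRB by 0.78 ± 0.23 and SLC3A2 by 0.72 ± 0.18. The adjusted p of these 8 was at most 0.0459. HEPH averaged 0.386 RPKM in control and passed the filter through groups where it was higher, so its difference follows in part from the filter. The BLVRB call was lost without any 1 of 9 libraries (adjusted p 0.0607 to 0.110) and the FDX1 call without any 1 of 9 (0.0515 to 0.0917). Both were also lost with no filter on low values (0.109 and 0.108), BLVRB without the 3 libraries of more short-gene signal (0.119), and with only the groups compared BLVRB (0.106) and SLC3A2 (0.0520). FOXA1 mRNA was less reduced in the double knockdown than in shFOXA1, and its part in these differences was not tested.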

How the results depend on the processing

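The count of called genes among the 10 stayed within 1.5 times of the reported one in every setting run for HIF1A knockdown, FOXA1 knockdown, HIF1A knockdown added to FOXA1 knockdown and FOXA1 knockdown under HIF1A knockdown. For KC7F2 against control it fell from 2 to 1 with no filter, at 5 RPKM or more, with median-ratio scaling, without the 3 libraries with more short-gene signal and with only the groups compared, and ran from 1 to 3 when single libraries were left out. For KC7F2 added to FOXA1 knockdown it fell from 2 to 1 with no filter and at 5 RPKM or more, rose to 4 without the 3 libraries, and ran from 1 to 2 without single libraries. For FOXA1 knockdown under KC7F2 it fell from 6 to 3 without the 3 libraries. The interaction of FOXA1 and HIF1A knockdown gave 0 at 5 RPKM or more, where STEAP4 is not tested. Quantile normalisation turned FTL in FOXA1 knockdown under KC7F2 from -0.36 to 0.0001 (adjusted p = 1.00). Where no gene left the tests, the cause was not tested.

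Of the 43 small uncalled values, given as ranges in the text, the sign changed in 39 refits under other settings and 61 with a library left out, and 6 refits passed the threshold. Median-ratio scaling moved the median of all genes from 0.0996 to -0.0097 for HIF1A knockdown added to FOXA1 knockdown and from -0.15 to -0.0033 for FOXA1 knockdown under KC7F2. Replicate numbers did not pair the libraries across all groups. The deviations of same-numbered libraries had a median r of -0.0082 (-0.214 to 0.252, 9 of 45 pairs over 0.1). Pairs of other numbers had a median r of 0.0036 (-0.463 to 0.363, 9 of 90 pairs over 0.1). In 33 of 90 comparisons a library was best with its own number, and 0 libraries were so in every group. Pairing between particular groups was not tested separately. With the replicate number as a block, 6 genes were called on FOXA1 knockdown and 6 on HIF1A knockdown, and the other 7 counts were the same. Depth limits STEAP4 and SLC40A1 most, at 14 and 8 reads in their lowest libraries.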
